A study of Paspalum vaginatum with 72 samples.

Results

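The gene emFS6.126 was followed through leaves and roots of seashore paspalum (Paspalum vaginatum), a warm-season turfgrass of saline coasts. It is 1 of the 27743 gene models in the deposited expression table, and it was chosen by its identifier, because its values were higher in the salt-tolerant accession than in the salt-sensitive one. Its difference between the accessions is therefore described without a test. The tolerant accession was USA17-18 and the sensitive accession was USA17-26. Leaves and roots of each were sampled after 8 h, 12 h, 24 h, 48 h and 5 days with 400 mM NaCl, and at time 0 without salt. These were 24 conditions with 3 libraries each, 72 in all. The study's methods make a biological replicate of several pooled plants and describe NaCl raised in daily steps, while the labels give a single concentration. No unsalted plants of the later times were used here, so salt cannot be told apart from the hour or the age of the plants at collection.

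Potassium uptake is central to salt tolerance in plants, since sodium competes with potassium at transporters and enzymes. The HAK/KUP family, also written KT/HAK/KUP, consists of membrane proteins that carry potassium into cells or move it between compartments. In rice, OsHAK1 is a high-affinity member that roots use when potassium is scarce. HKT proteins carry sodium or potassium, NHX and SOS1 proteins exchange sodium for protons, and kinases of the CIPK family, bound to calcium sensors of the CBL family, switch several of these carriers on.

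The gene model lies on chromosome 6, from 3052906 to 3053910 on the plus strand of the deposited annotation, a span of 1005 bases. Only its KEGG match names it a potassium uptake protein of the KUP type. It has no Swiss-Prot match and no Pfam domain, and its 1 Gene Ontology term places it in a membrane. KEGG gave the same KUP entry to 39 gene models of the table. Of these, 26 carry the potassium transporter domain of Pfam, and all 26 are also named potassium transporters in Swiss-Prot. Their models span 3020 to 70443 bases with a median of 4874.5 bases. The other 13 models, emFS6.126 among them, lack that domain. In place of it 5 carry a transposase-associated domain, 4 an NHL repeat and 1 a domain of unknown function, and 3 have no domain. The 4 other models matched to the very same KEGG protein as emFS6.126 all carry an NHL repeat. The name KUP thus rests on 1 of the annotations, and the gene is called by its identifier here. Its sequence was not analysed here.

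**Figure D1:**
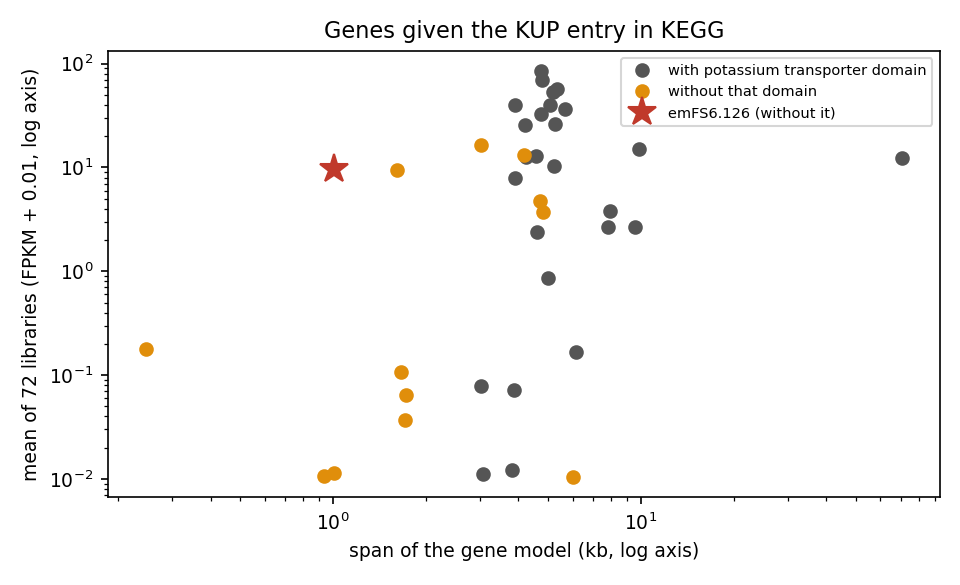
Span of the gene model in kb and mean of the 72 libraries (FPKM + 0.01), both on log axes, for the 39 gene models that KEGG assigns to the KUP entry. The star is emFS6.126, whose span of 1005 bases is below that of every model with the potassium transporter domain (grey, 3020 bases or more), and orange points are the other models without the domain.

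Expression was measured by RNA sequencing and given as FPKM, fragments counted per length of the gene model and per number of mapped fragments of the library. Read counts and totals were not used here. From the steps between low values of 81 genes, the relative depth of the libraries was estimated at 0.739 to 1.24 times their median. A library reached 1 FPKM in 17555 to 20676 genes. The summed level of 30 leaf marker genes of photosynthesis was 243 to 1877 FPKM in roots and 1724 to 64106 FPKM in leaves. That of 19 root marker genes was 422 to 13863 FPKM in roots and 7.86 to 241 FPKM in leaves. The leaf lists thus overlapped between the tissues at their edge, while the root lists did not. In bulk tissue, fewer cells with a transcript and less transcript per cell cannot be told apart.

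Of the 36 libraries labelled as the tolerant accession, 6 stood apart from the other 30. They were the first library of leaves at 8 h, all 3 of leaves at 12 h, and the first library of roots at 8 h and at 12 h. This was seen with genes that differed between the accessions at time 0 by at least 4 on the log2 scale in the other tissue, emFS6.126 left out. For leaves these were 18 tolerant-type and 81 sensitive-type genes chosen in roots, and for roots 15 tolerant-type and 28 sensitive-type genes chosen in leaves. An accession score was taken as the mean log2(FPKM + 1) of the tolerant-type genes minus that of the sensitive-type genes. In leaves the score was 0.80 to 1.44 in the 4 libraries that stood apart, 3.15 to 4.0 in the other tolerant libraries and -1.06 to -0.33 in the sensitive libraries. In roots it was 0.49 and 0.69 in the pair that stood apart, 1.5 to 2.35 in the other tolerant libraries and -4.22 to -1.75 in the sensitive libraries. The 6 libraries thus lay between the accessions, and their relative depth was 0.92 to 1.20. They were picked out after their scores were seen, and results that rest on them are given with and without them. What set them apart was not tested.

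Leaves of the tolerant accession had high values of emFS6.126 at every time except 12 h. The 3 libraries had 15.91, 23.56 and 13.34 FPKM at time 0. At 8 h they had 2.93, 26.03 and 23.22 FPKM, and at 12 h 1.73, 1.42 and 0.58 FPKM. The low library of 8 h and all libraries of 12 h were those that stood apart. The later values were 14.97, 11.67 and 14.13 FPKM at 24 h, 23.53, 16.16 and 16.21 FPKM at 48 h, and 26.88, 30.17 and 11.34 FPKM at 5 days. These later groups all overlapped with time 0.

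Roots of the tolerant accession had high values at every time in the libraries that did not stand apart. Their values were 24.88, 22.44 and 27.51 FPKM at time 0. At 8 h they were 4.96, 20.08 and 17.70 FPKM and at 12 h 1.01, 18.46 and 20.50 FPKM, the first value of each again from a library that stood apart. The remaining root libraries had 19.18, 19.52 and 20.29 FPKM at 24 h, 21.30, 14.02 and 19.30 FPKM at 48 h, and 19.33, 20.24 and 18.73 FPKM at 5 days. All 15 salt libraries of tolerant roots thus lay below the lowest value at time 0.

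Leaves of the sensitive accession had low values throughout. They had 2.58, 1.24 and 3.28 FPKM at time 0, 2.78, 2.58 and 3.51 FPKM at 8 h, and 0.27, 3.58 and 4.25 FPKM at 12 h. From 24 h on the values were lower and closer together, with 1.17, 1.27 and 1.38 FPKM at 24 h, 1.31, 1.10 and 1.08 FPKM at 48 h, and 0.95, 1.52 and 0.67 FPKM at 5 days. The values of time 0 still reached into this range through 1 library.

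Roots of the sensitive accession began higher than its leaves and were lower during most of the salt series. The libraries had 5.17, 5.68 and 5.29 FPKM at time 0, and 0.97, 1.68 and 1.25 FPKM at 8 h. They had 3.57, 0.81 and 2.19 FPKM at 12 h, 2.20, 3.63 and 1.71 FPKM at 24 h, and 3.12, 0.88 and 1.46 FPKM at 48 h. At 5 days the values were 3.83, 3.20 and 6.94 FPKM. No library of 8 h to 48 h reached the lowest value of time 0, and the libraries of 5 days lay on both sides of it.

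**Figure D2:**
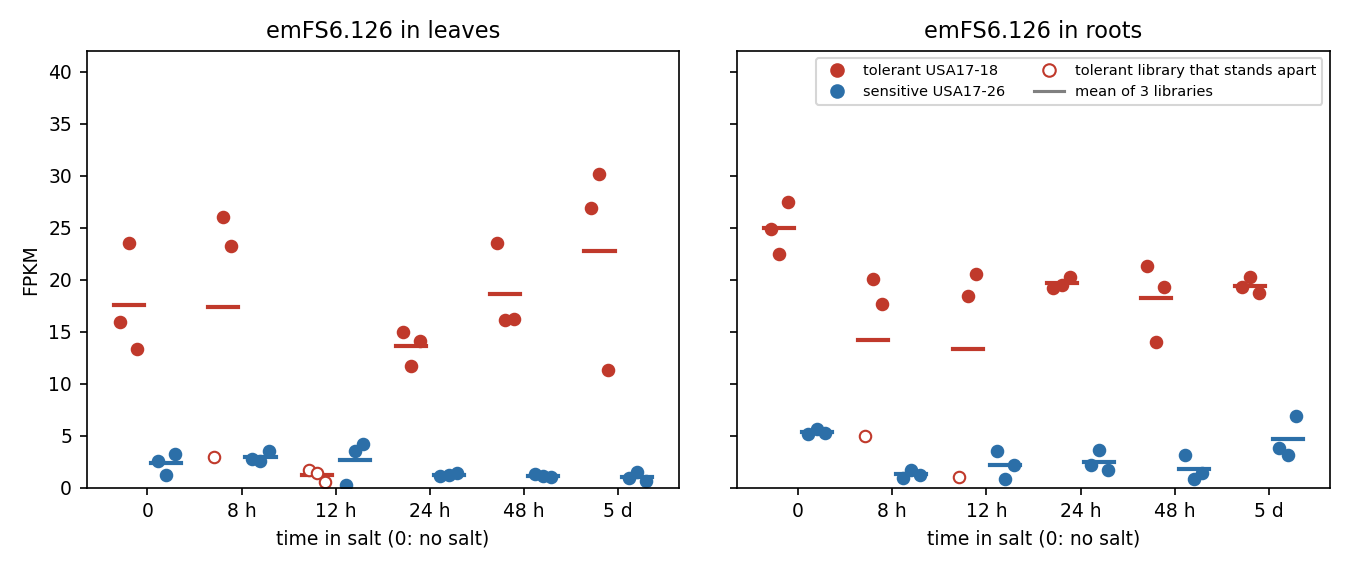
FPKM of emFS6.126 in each of the 72 libraries, by time in salt, in leaves (left) and roots (right). Each point is a library, tolerant (red) to the left of sensitive (blue), short lines are means of 3 libraries, and open points are the 6 tolerant libraries that stood apart, which had 0.58 to 4.96 FPKM.

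Across all conditions the tolerant accession held the upper end of the order. The 30 tolerant libraries that did not stand apart had 11.34 to 30.17 FPKM with a median of 19.4, against 0.27 to 6.94 FPKM with a median of 1.95 in the 36 sensitive libraries, and these ranges did not overlap. The 6 libraries that stood apart lay entirely within the sensitive range. By condition means, the first 11 of the 24 conditions were tolerant. The highest was tolerant roots at time 0 with 24.9 ± 2.54 FPKM (SD, n = 3), followed by tolerant leaves at 5 days with 22.8 ± 10.1 FPKM. The last of the 11 was tolerant roots at 12 h with 13.3 ± 10.7 FPKM. The next condition was sensitive roots at time 0 with 5.38 ± 0.267 FPKM. Tolerant leaves at 12 h ranked 22 of 24 with 1.24 ± 0.595 FPKM, and sensitive leaves at 5 days were last with 1.05 ± 0.433 FPKM. In all 23 pairs of neighbours in this order the libraries overlapped, so no step between neighbours exceeded the spread of the libraries. Without the 6 libraries that stood apart, 23 conditions and 22 pairs remained, and 1 pair did not overlap. It was the step between the accessions, from tolerant leaves at 24 h with a lowest value of 11.67 FPKM to sensitive roots at time 0 with a highest value of 5.68 FPKM. The gene was chosen for this difference, and the 6 libraries were picked out after their scores were seen. The step follows in part from both choices.

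The ratio of the tolerant to the sensitive mean described the same pattern within each time. In leaves it was 7.44 ± 3.96 at time 0, 5.88 ± 4.37 at 8 h and 0.460 ± 0.425 at 12 h, then 10.7 ± 1.61 at 24 h, 16 ± 4.05 at 48 h and 21.8 ± 13.2 at 5 days (SD carried over from 3 libraries on each side). Without the library that stood apart, the ratio at 8 h in leaves was 8.33 ± 1.53. The 12 h ratio of leaves has no such value, because all 3 tolerant libraries stood apart. In roots the ratio was 4.64 ± 0.524 at time 0, 11 ± 6.94 at 8 h, 6.08 ± 6.21 at 12 h, 7.82 ± 3.11 at 24 h, 10.0 ± 6.72 at 48 h and 4.17 ± 1.80 at 5 days. Without the libraries that stood apart it was 14.5 ± 4.20 at 8 h and 8.89 ± 5.64 at 12 h. The libraries of the accessions overlapped at 8 h in leaves and at 12 h in both tissues, and in none of the other 9 combinations of tissue and time. This count is a description, since the gene was chosen for its difference between the accessions. The share of all genes without overlap was not determined. The overlaps at 8 h in leaves and at 12 h in roots ended when the libraries that stood apart were left out.

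The low values of emFS6.126 in tolerant samples were found where other tolerant-type genes were low too. The genes described here also enter the score by which these libraries were picked out. Their low level in them follows in part from that choice and is a description, not a further result. In the 4 leaf libraries that stood apart, 16 tolerant-type genes had a median level of 4.08% to 23.9% of tolerant leaves at time 0, against 56.8% to 118% in the other tolerant leaf libraries and at most 1.49% in sensitive leaves. Only genes with a mean of 1 FPKM or more at time 0 in that tissue of their own accession entered these percentages. For the sensitive-type genes of leaves these were 23 of 81. They had 51.6% to 63.8% of their level in sensitive leaves at time 0 in these 4 libraries. They had 0% to 14.5% in the other tolerant leaves and 39.8% to 126% in sensitive leaves. In roots, 12 tolerant-type genes had 44.3% and 50.3% of the level of tolerant roots at time 0 in the libraries that stood apart, 82.4% to 123% in the other tolerant roots and at most 0.561% in sensitive roots. The sensitive-type genes of roots, 15 of 28, did not set these libraries apart. They had 124% and 137% in them, 26.7% to 156% in the other tolerant roots and 78.2% to 313% in sensitive roots. In the 6 libraries emFS6.126 itself had 3.29% to 19.9% of its tolerant mean at time 0 in the same tissue, against 56.2% to 171% in the other tolerant libraries and 1.53% to 27.8% in the sensitive ones.

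**Figure D3:**
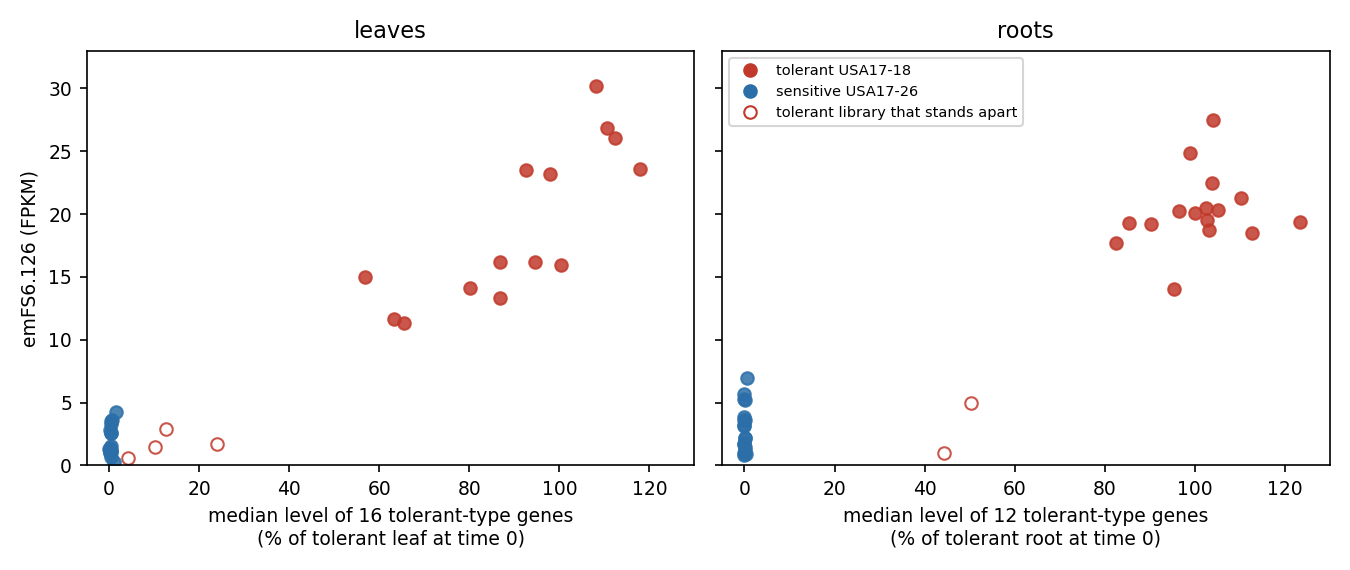
FPKM of emFS6.126 against the median level of tolerant-type genes, in percent of tolerant samples at time 0, for leaves (left, 16 genes) and roots (right, 12 genes). Each point is a library, tolerant in red and sensitive in blue, and the open points that stood apart have 4.08% to 50.3% on the horizontal axis with 0.58 to 4.96 FPKM. The genes of the horizontal axis also enter the score by which the open points were picked out.

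Salt was compared with time 0 within each accession and tissue, on log2(FPKM + 1) with limma, and p-values were adjusted over all genes tested. A gene was called where its adjusted p did not exceed 0.05 and its log2 change was 1.5 or larger in size. By this rule emFS6.126 was called in 1 of the 20 salt comparisons. It was lower in tolerant leaves at 12 h, with a difference of -3.05 ± 0.51 (log2, SE; adjusted p = 2.79e-05), where 13.9% of all genes tested were called and 5.97% were called as lower. All 3 libraries of that condition stood apart, so no value could be had without them. In the other 4 comparisons of tolerant leaves the difference was between -0.40 and 0.28, with adjusted p of 0.593 or more, and 9.33% to 13.7% of genes were called. Without the library that stood apart, the difference at 8 h was 0.50 ± 0.43 in place of -0.40 (adjusted p = 0.426).

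In tolerant roots the difference from time 0 was -0.96 ± 0.56 at 8 h (adjusted p = 0.163) and -1.45 ± 0.56 at 12 h (adjusted p = 0.0394 by limma, below the fold threshold). Without the libraries that stood apart they were -0.38 ± 0.31 and -0.34 ± 0.31 (adjusted p = 0.348 and 0.453). At 24 h, 48 h and 5 days it was -0.32, -0.45 and -0.34, each with an SE of 0.56, and was not called. Thus the lower level of salted tolerant roots, though seen in all 15 libraries, was not called at any time. The background here was 5.56% to 12.7% of genes called.

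In sensitive roots the difference was -1.48 ± 0.56 at 8 h, with an adjusted p of 0.0304 by limma but a size just under the fold threshold. It was -1.10 at 12 h, -0.90 at 24 h, -1.26 at 48 h and -0.23 at 5 days, with adjusted p of 0.117, 0.205, 0.085 and 0.774. The SE was set by a spread shared over the 36 root libraries, and it dropped to 0.28 in the sensitive roots when the libraries that stood apart were left out. The adjusted p by limma was then 0.000119 at 8 h, 0.00275 at 12 h, 0.0113 at 24 h and 0.000988 at 48 h, and 0.537 at 5 days, while the differences were the same and none reached the fold threshold. In these comparisons 9.36% to 12.9% of genes were called. In sensitive leaves the differences were between -0.69 and 0.28 with adjusted p of 0.387 or more, and 1.65% to 22.7% of genes were called. Over all genes the median difference between salt and time 0 ranged from -0.57 to 0.19 on the log2 scale, and it was lowest in sensitive leaves at 24 h, where emFS6.126 was at -0.52.

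**Figure D4:**
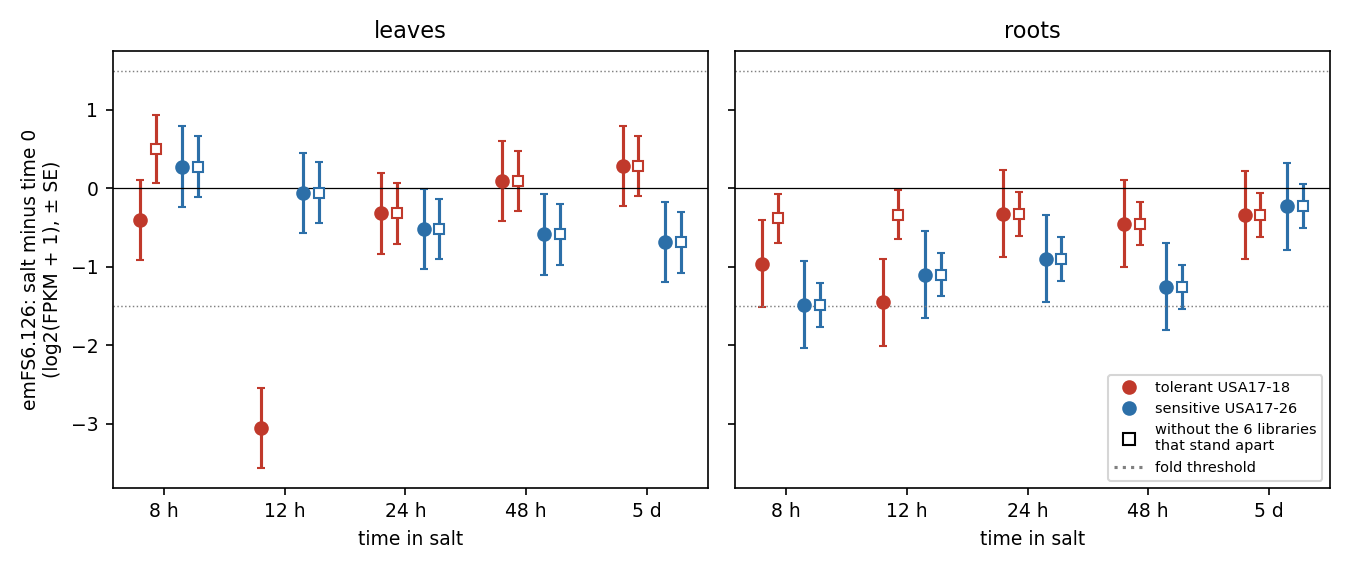
Difference between salt and time 0 in log2(FPKM + 1) of emFS6.126 with its SE, in leaves (left) and roots (right), for the tolerant (red) and sensitive (blue) accession, with dotted lines at the fold threshold of 1.5. Open squares are the fit without the 6 libraries that stood apart, in which tolerant roots lie at -0.38 and -0.34 at 8 h and 12 h, and only tolerant leaves at 12 h (-3.05) pass the threshold in the fit of all libraries.

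Roots were compared with leaves within each accession and time in a fit of all 72 libraries. In the tolerant accession the gene was called as higher in roots at 12 h alone, with 2.11 ± 0.54 (adjusted p = 0.00119 by limma), where 19.1% of genes were called, and 8.52% were called as higher in roots. The leaf values of that time all came from libraries that stood apart. The root value of 12 h that stood apart, 1.01 FPKM, lay within the range of those leaf libraries. At the other times the tolerant difference was between -0.11 and 0.51 and was not called. Each of these differences had an SE of 0.54, so a difference of that order between the tissues could not be detected. The tolerant difference at 8 h without the libraries that stood apart was -0.37 ± 0.42 (adjusted p = 0.536), the other 4 were between -0.11 and 0.51 with an SE of 0.34, and none was called. In the sensitive accession the difference was 0.97 at time 0 (adjusted p = 0.135) and 1.43 ± 0.54 at 5 days (adjusted p = 0.0268, below the fold threshold), and it was between -0.79 and 0.59 at the other times. Without the libraries that stood apart, the sensitive difference had an adjusted p of 0.0148 at time 0 and 0.000498 at 5 days. The change from time 0 was also compared between roots and leaves of the tolerant accession. Of 5 such tests 0 reached an adjusted p of 0.05 in limma, and the largest was 1.60 ± 0.77 at 12 h (unadjusted p = 0.0431, adjusted p = 0.103), the 1 test of the 5 with an unadjusted p under 0.05.

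The genes around emFS6.126 were called between the accessions in 1 of 96 tests, or 1.04%, beside 2.8% over all genes. Of the 5 annotated models on each side, 8 had enough expression to be tested, while emFS6.130 and emFS6.120 were near 0. The nearest were emFS6.127, named heat stress transcription factor C-1b, 1983 bases upstream, and emFS6.124, named a microtubule-associated protein of the EB1 type, 9895 bases downstream. The tolerant mean of emFS6.127 over 18 libraries was 1.31 FPKM in leaves and 0.824 FPKM in roots, against 0.631 and 0.531 FPKM in the sensitive accession. For emFS6.124 the means were 1.49 and 1.92 FPKM in tolerant leaves and roots, against 2.33 and 0.811 FPKM in sensitive ones. Neither was called in any of 12 comparisons of the accessions, though emFS6.124 reached an adjusted p of 0.0337 at 8 h and 0.0401 at 24 h in roots, with differences of 1.17 and 1.04 below the fold threshold.

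The next models upstream, emFS6.128 and emFS6.129, have no name. The means of emFS6.128 were 6.83 and 8.54 FPKM in tolerant leaves and roots, against 3.50 and 5.93 FPKM in sensitive ones. Those of emFS6.129 were 4.66 and 6.84 FPKM in tolerant leaves and roots, against 2.29 and 4.94 FPKM in sensitive ones. In leaves emFS6.129 had a difference of 1.25 ± 0.34 at 24 h and 1.41 ± 0.34 at 48 h (adjusted p = 0.0182 and 0.0133 by limma), and in roots at 8 h emFS6.128 had 1.09 ± 0.28 (adjusted p = 0.0114 by limma), all below the fold threshold. Of the 96 tests of the 8 neighbours between the accessions, 8 in 6 genes had an adjusted p of 0.05 or less by limma. This count leaves out the fold threshold, and the share of all genes at that adjusted p alone was not determined. It cannot be set beside the share of calls over all genes, which needs the fold threshold as well. Whether the neighbours pass more often than other genes was therefore not tested.

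The 1 call was made for emFS6.123, named ABC transporter B family member 19, a type of protein known for auxin transport in Arabidopsis. In roots at 24 h it was higher in the tolerant accession by 1.86 ± 0.35 (adjusted p = 0.000441 by limma), where 6.08% of genes were called and 4.28% were called as higher, and it was not called in the other 11 comparisons. Its differences ranged from -2.33 in leaves at time 0 (adjusted p = 0.096 by limma) to that 1.86. The means of emFS6.123 were 6.39 and 17.5 FPKM in tolerant leaves and roots, against 9.41 and 15.8 FPKM in sensitive ones. Over the 12 comparisons of the accessions the background ranged from 0.955% to 6.08%. The means of emFS6.121, the most abundant neighbour, were 39.7 and 62.0 FPKM in tolerant leaves and roots, against 42.2 and 57.2 FPKM in sensitive ones. When the libraries that stood apart were left out, emFS6.123 in roots at 24 h was again the 1 call of the neighbours (1.86, adjusted p = 0.000277), over 11 comparisons.

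**Figure D5:**
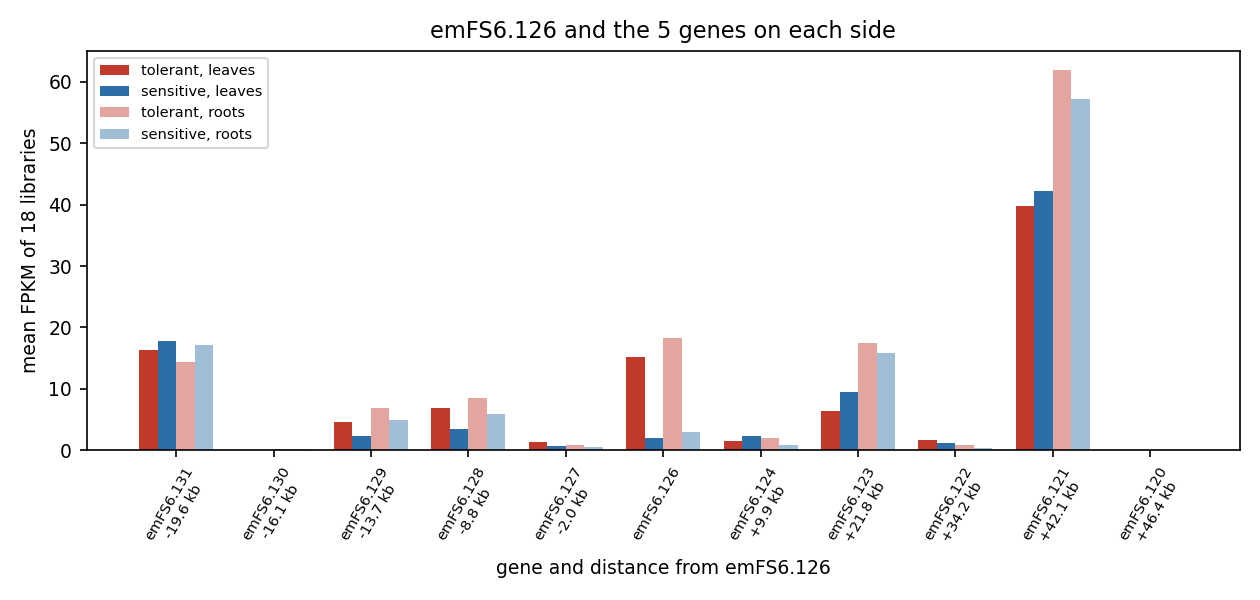
Mean FPKM over 18 libraries of emFS6.126 and the 5 annotated genes on each side, with their distance from it in kb, for tolerant (red) and sensitive (blue) leaves (full colour) and roots (pale). At emFS6.126 the tolerant bars stand at 15.2 FPKM in leaves and 18.3 FPKM in roots, against 1.92 and 2.98 FPKM for the sensitive bars. The bars of its most abundant neighbour, emFS6.121, stand at 39.7 and 62.0 FPKM for tolerant leaves and roots, against 42.2 and 57.2 FPKM for sensitive ones.

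The genes most like emFS6.126 over the 36 tolerant libraries followed the 6 libraries that stood apart. Pearson's correlation on log2(FPKM + 1) was computed against 23919 genes, and 53 had 0.9 or more. The libraries came from both tissues and 1 accession and differed in depth, and these values are a description. The 5 highest were emOS84.8 (0.97), emOS79.1145 (0.96), emOS79.1146 (0.96), emFS12.390 (0.96) and emOS38.11 (0.96). The gene emOS84.8, matched in KEGG to ribosome assembly protein 1, had 0 to 2.05 FPKM in the 6 libraries and 10.53 to 29.51 FPKM in the other tolerant ones. It had 9.14 to 51.02 FPKM in the sensitive libraries, so it was low in the 6 libraries alone. The gene emFS12.390, with no match, did the same, with 0 to 1.54 FPKM in the 6 libraries, 11.97 to 31.45 FPKM in the other tolerant ones and 17.93 to 88.38 FPKM in the sensitive ones. In contrast, emOS79.1145 and emOS79.1146, neighbours on chromosome 4, were listed at 0 in all sensitive libraries. Low values of these genes in the 6 libraries follow from the way the genes were picked, since emFS6.126 was itself low there. The genes picked included some listed at 0 in the sensitive accession and some that it expressed.

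Over the 24 condition means, 70 genes had a correlation of 0.9 or more with emFS6.126. Since emFS6.126 was chosen for its higher values in the tolerant accession, a high correlation here largely repeats that contrast. The accession means of these genes are therefore a description, not a further result. The 5 highest were emOS43.607 (0.96), emOS34.12 (0.96), emOS43.597 (0.95), emOS79.1145 (0.95) and emOS43.606 (0.95). Of these, emOS43.597, emOS43.606 and emOS43.607 lie on chromosome 1 between 15395950 and 15481653. The means of emOS43.607 were 3.87 and 4.95 FPKM in tolerant leaves and roots, against 0.171 and 0.158 FPKM in sensitive ones. The gene emOS34.12, named RNA-binding protein Y14A, a part of the exon junction complex, had 3.27 and 4.98 FPKM in tolerant leaves and roots and 0 FPKM in both sensitive tissues. When the 6 libraries were left out, the likeness within the tolerant accession was weaker. In the 30 other tolerant libraries only emFS21.557 reached 0.90, and in the 36 sensitive libraries the highest value was 0.76, for emFS6.221, named a vacuolar cation/proton exchanger.

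Genes of the HAK/KUP family, taken by their Swiss-Prot names, were set beside emFS6.126. Of 27 members 22 had enough expression to be tested. Between the accessions 5 members were called at least once, with 5 calls higher and 3 lower in the tolerant accession among 228 tests, or 3.51%, where 2.8% of all tests were called, 1.6% as higher and 1.2% as lower. With salt 17 members were called at least once, with 49 calls higher and 24 lower among 380 tests, or 19.2%, where the share over all genes was 10.7%, 5.37% as higher and 5.37% as lower. Comparisons within a tissue and accession share their time 0 libraries, so these calls are not independent. Without the libraries that stood apart, there were 2 calls higher and 4 lower among 202 tests between the accessions. This was 2.97%, near the 2.92% over all genes. The lower calls were of emFS22.1351 in roots at 12 h, 24 h and 48 h and of emFS4.2154 in leaves at 24 h. They give no direction for the family. With salt there were 43 calls higher and 22 lower among 350 tests, or 18.6%, beside 10.5% over all genes.

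The member called most often was emFS22.1351, named OsHAK1. Its mean level was 38.1 FPKM in tolerant roots against 89.5 FPKM in sensitive roots, and 18.7 FPKM in tolerant leaves against 12.8 FPKM in sensitive leaves. It fell at all 5 salt times in roots of both accessions. The log2 change was -4.23 to -2.09 in tolerant roots and -4.48 to -1.76 in sensitive roots, with adjusted p by limma of 0.000181 or less. In tolerant leaves emFS22.1351 rose at 8 h by 2.97 ± 0.57 (adjusted p = 0.00016), and by 2.60 without the library that stood apart (adjusted p = 0.00382). At 12 h in tolerant leaves, where all libraries stood apart, it was higher by 1.94 (adjusted p = 0.00719). At 5 days in tolerant leaves it fell by 1.52 (adjusted p = 0.0476 by limma), a call that was lost without the libraries that stood apart (adjusted p = 0.0579). In roots it was lower in the tolerant accession at 24 h and 48 h, with differences of -2.20 ± 0.34 and -1.81 ± 0.34 on the log2 scale (adjusted p = 5.02e-05 and 0.000772 by limma). Both calls were also made without the libraries that stood apart, and emFS22.1351 was then called as lower in the tolerant accession in roots at 12 h too, with -1.59 (adjusted p = 0.00721) in place of -1.35 (adjusted p = 0.0242). In leaves at 8 h it was higher in the tolerant accession by 1.89 ± 0.57 (adjusted p = 0.0217), a call that was lost without the library that stood apart (1.52, adjusted p = 0.150).

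Members of the family differed in the direction of their calls with salt. Of the 22 tested, 9 were called only as higher, 5 only as lower, 3 in both directions and 5 not at all. The gene emOS140.148, named OsHAK11, was called as higher in 9 of 20 comparisons, emOS105.366 (OsHAK10) in 8, and emFS4.837 (OsHAK2), emFS4.2102 (OsHAK9) and emOS43.297 (OsHAK21) in 6 each. For emOS140.148, emOS105.366 and emFS4.2102, 1 of these calls each was in tolerant leaves at 12 h, and the others were also made without the libraries that stood apart. Called only as lower were emOS49.86 (OsHAK24) in 4 comparisons and emOS174.136 (OsHAK25) in 3, both named after their values were seen. The most abundant was emOS105.366, with means of 53.3 and 112 FPKM in tolerant leaves and roots, against 62.5 and 111 FPKM in sensitive ones. The level of emOS140.148 was 83.9 FPKM in tolerant leaves against 112 FPKM in sensitive leaves, and 6.94 FPKM in tolerant roots against 10.0 FPKM in sensitive roots. Another abundant member, emFS4.2154 (OsHAK7), had 34.7 and 77.2 FPKM in tolerant leaves and roots, against 39.4 and 77.4 FPKM in sensitive ones, and was called once between the accessions and once with salt.

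The other potassium and sodium lists were called between the accessions at shares below the 2.8% of all tests in the fit of all libraries. Potassium channels and their subunits (27 genes, 21 tested) had 2 calls higher and 1 lower among 222 tests. The potassium inward channel emFS18.596, named OsAKT1, was called as higher in the tolerant accession in leaves at 8 h (1.70 ± 0.45, adjusted p = 0.00898 by limma) and as lower in leaves at 12 h (-2.02 ± 0.45, adjusted p = 0.00407), where all tolerant libraries stood apart. HKT and sodium/proton exchangers (12 genes, all tested) had 1 call lower among 114 tests. It was made for emOS140.195, named OsHKT4 and mentioned for this call, again in leaves at 12 h. Genes of the CBL and CIPK families (39 genes, 35 tested) had 7 calls higher and 1 lower among 408 tests. Without the libraries that stood apart, the channels had 2 calls higher and 0 lower among 202 tests by limma. An unadjusted p under 0.05 was found in 51 of these tests, 27 of them lower. HKT and exchangers had 0 calls among 104 tests by limma, with 9 at an unadjusted p under 0.05, 5 of them lower. Over all genes 51965 of 244938 tests of this fit had an unadjusted p under 0.05 by limma, 21912 of them lower. The CBL and CIPK genes then had 8 calls higher and 3 lower among 374 tests, or 2.94%, no longer below the 2.92% over all genes.

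With salt the channels were called in 10.5% of tests, HKT and exchangers in 12.6% and CBL and CIPK genes in 22.9%, beside 10.7% over all genes. These shares without the libraries that stood apart were 11.4%, 12.8% and 22.1%, beside 10.5%. The outward channel genes emOS49.192 and emOS49.193, both named KOR1, rose in 11 of 20 salt comparisons each. They lie close together on chromosome 10, from 34223540 to 34228543 and from 34228741 to 34229396. Most of the 27 higher salt calls of the channels thus came from this 1 place. Whether the models are parts of 1 gene was not tested. Of the 12 lower salt calls of the channels, 8 were of emFS18.596 (OsAKT1), which was called as higher in 2 comparisons. Among the sodium carriers emOS140.194, named OsHKT7, rose in 8 comparisons and emOS120.239, named OsHKT8, fell in 7. The kinase gene emOS181.439, named OsCIPK6, rose in 18 of its 20 salt comparisons, and emOS43.102, named OsCIPK7, fell in 14. Of these calls, 1 of emOS181.439 and 1 of emOS43.102 were in tolerant leaves at 12 h, and all others were also made without the libraries that stood apart.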

How the data were processed

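The authors extracted RNA from leaves and roots, sequenced it on an Illumina instrument, trimmed reads with Trimmomatic (0.32 in the submitters' processing notes) and aligned them with HISAT2 (2.1.0 there). The deposited values are FPKM made by the authors, while the methods write RPKM. Not given in the sources used here are the genome build, the counting tool and its strand setting. No read counts were used. FPKM hide depth, so low values carry a counting error that is unknown here. Samples were grouped by their labels, and the methods name the tolerant and sensitive accession.

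Genes that reached 1 FPKM in 3 or more libraries were tested with limma 3.58.1 (R 4.3.3), moderated with a trend, on log2(FPKM + 1), which understates changes of low genes. All tests are two-sided, with Benjamini-Hochberg adjustment over all genes tested, 22551 in leaves, 22194 in roots and 23933 in both. The 36 libraries of a tissue entered 1 fit for salt and accession, and all 72 for tissue. The code was tested on simulated data. The gene, the lists and the tests were chosen with earlier results of these data known. Named genes were emFS6.126, the 5 models on each side, the genes most correlated with it, and, of each list, those called most often or with the highest mean. The alternatives were another pseudocount, filter, scaling, fold threshold, set of libraries and a replicate block, and, added after seeing the data, leaving out the 6 libraries that stood apart. No 2 libraries were identical. By the study's methods a replicate pools several plants, and p-values measure the spread between such replicates. Thiamine and inositol phosphate kinases that share the abbreviation TPK with channels were left out of the channel list after its values were seen. Replicate numbers deviated together, with r over 0.1 for every pair, in 2 of 32 comparisons, tolerant leaves at 12 h against time 0 and sensitive roots against leaves at 12 h. Names come from matches to other species. Tables and figures were made with Python 3.11.15, pandas 2.3.3, numpy 2.4.6 and matplotlib 3.10.9.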

Additional observations from a re-analysis of the deposited data

Results flagged for a closer look

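In the sensitive accession the libraries of emFS6.126 at 8 h of salt lay on opposite sides of their time 0 means in the tissues. Its mean in sensitive leaves at 8 h was 1.25 times the mean at time 0, and all 3 libraries, with 2.78, 2.58 and 3.51 FPKM, lay above that mean of 2.37 FPKM. In sensitive roots all 3 libraries of 8 h, with 0.97, 1.68 and 1.25 FPKM, lay below the time 0 mean of 5.38 FPKM. The leaf libraries of 8 h overlapped with those of time 0, which had 1.24 to 3.28 FPKM. The leaf difference from time 0 was 0.28 ± 0.51 on the log2 scale (adjusted p = 0.849 by limma), so a rise in leaves was not shown. In roots it was -1.48 ± 0.56 (adjusted p = 0.0304 by limma), below the fold threshold. The difference between the tissues was not tested. It was the 1 such case among 20 pairs looked at.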

How the results depend on the processing

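Differences are on the log2 scale. Without the 6 libraries that stood apart, tolerant leaves at 8 h turned to 0.50. With a pseudocount of 5, sensitive leaves at 12 h turned to 0.0316 and tolerant roots against leaves at 12 h lost its call (1.30). That call was also lost with only the libraries compared (2.11, adjusted p = 0.106). With a pseudocount of 0.1, sensitive roots against leaves at 12 h turned to 0.12, the tolerant root change minus leaf change at 24 h to 0.000356, and calls were gained for tolerant roots at 12 h (-1.73), sensitive roots at 8 h (-2.0) and sensitive roots against leaves at 5 days (2.04). Scaling each library to a sum of 1000000 gained the same calls (-1.53, -1.62 and 1.56) and turned tolerant roots against leaves at 48 h to 0.0059. A fold threshold of 1 gained the same 3 calls (-1.45, -1.48 and 1.43). Median-ratio scaling turned tolerant roots against leaves at 8 h to 0.0163 and at 24 h to -0.0122, and the tolerant root change minus leaf change at 12 h passed (1.90). The cause of these moves was not tested. A replicate block changed no call, with -3.05 (adjusted p = 4.03e-05) for tolerant leaves at 12 h.

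Leaving out 1 library gave these ranges where a sign or a call changed. Against time 0 they were -0.89 to 0.50 for tolerant leaves at 8 h, -0.0769 to 0.31 for tolerant leaves at 48 h, -0.43 to 0.59 for sensitive leaves at 12 h, -2.05 to -0.34 for tolerant roots at 12 h and -1.60 to -1.38 for sensitive roots at 8 h. For roots against leaves they were -0.94 to 0.54, -0.15 to 0.14 and -0.53 to 0.14 in tolerant plants at 8 h, 48 h and 5 days, and -0.72 to 0.30, -0.00693 to 0.56 and 1.16 to 1.62 in sensitive plants at 12 h, 48 h and 5 days. For the tolerant root change minus leaf change they were -1.46 to 0.0223 at 8 h, 1.00 to 2.71 at 12 h and -0.22 to 0.16 at 24 h.

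Over 37 comparisons, the number of genes called was 0.483 to 0.617 times its value with a pseudocount of 5, 1.13 to 1.53 times with 0.1 and 1.40 to 1.92 times with a fold threshold of 1. Leaving out 1 library gave 0.528 to 2.76 times, a change by more than a factor of 1.5 up or down in 4 of 252 cases. All 27 values of the ratio of the accession means under other settings and all 72 with 1 library left out moved by less than the SD of the ratio. Leaving out 1 of 3 libraries always moves a mean by less than its SD. The 72 values could therefore hardly have failed and do not show stability. With 1 library left out the ratio ranged from 4.42 to 8.33 in leaves at 8 h and from 18.3 to 28.1 in leaves at 5 days. Only the relative depth of the libraries was estimated, not the number of reads. The counting error of the low values in the sensitive accession, 0.27 to 6.94 FPKM, is therefore unknown. Whether reads of the accessions align equally well to this gene model was not tested.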
